A study of Homo sapiens with 18 samples.

Results

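The genes described here copy DNA or supply the nucleotides for it. They are 40 genes, read as all probe sets of an Affymetrix oligonucleotide array that the platform's annotation gives to exactly 1 of them, which made 61 of the 22215 probe sets tested. One probe set served for 25 of the genes and several for 15, and 2 further probe sets that are shared with another gene were not used. The genes were chosen by their function, with earlier results of these data known.

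RNA came from SH-SY5Y, an established, clonal line of human neuroblastoma cells, either exposed to the nerve agent sarin at 5 ppm or left untreated. The groups are sarin-exposed cells at 3 h, 24 h and 48 h and untreated control cells at 3 h, 24 h and 48 h, with 3 arrays in each of the 6 groups. The labels name 6 flasks of cells for a group of 3 arrays and do not tie flasks to arrays, so the spread between arrays, on which every p-value rests, may be technical. The labels give no genotype, medium, passage or vehicle, and all groups share the line. Of 12 genes of sympathoadrenal neuroblasts with a probe set, 10 were above the arrays' background on all 18 arrays, among them PHOX2A, GATA3 and DBH. HAND2 was above background on 16 arrays and TH, which encodes tyrosine hydroxylase, on 0. Of 4 glial genes with a probe set, MBP was above background on all 18 arrays, GFAP on 11, SOX10 on 1 and S100B on 0. Of 8 genes of substrate-adherent or mesenchymal cells, VIM, CD44, COL1A1, COL1A2 and COL3A1 were above it on all 18. Of 4 blood genes, CD3E and HBB were above it on all 18, PTPRC on 5 and CD14 on 1. RNA from whole flasks does not show whether fewer cells carried a transcript or each cell carried less of it.

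Before a cell copies its DNA, the origin recognition complex (ORC) and CDC6 load the MCM helicase onto origins, and geminin blocks loading once replication has begun. CDC45 and the GINS complex switch the helicase on, polymerase α with primase lays down primers, and polymerases δ and ε extend them behind the sliding clamp PCNA, which the RFC complex loads, while RPA coats the single strands. FEN1 and DNA ligase I join the fragments of the lagging strand. Ribonucleotide reductase, thymidylate synthase, thymidine kinase and dUTPase supply the deoxynucleotides, and uracil-DNA glycosylase removes uracil that has entered DNA. Many of these genes are transcribed as cells enter S phase, under factors of the E2F family, and are low in cells that have stopped dividing.

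The promoters show what the genes share in sequence. RefSeq promoter sequences of build GRCh38.p14 were found for 36 of the 40 genes (not for RPA2, RPA3, MCM4 and MCM5), and the 250 bases before the first listed start were searched on both strands for 4 E2F-type motifs of 8 letters, TTTCCCGC, TTTCGCGC, TTTGCCGC and TTTGGCGC. Of the 36 promoters, 12 held a match (33.3%), against 761 of 27305 genes of the same table (2.79%). The CCAAT motif, searched on both strands in the same way, was in 20 of the 36 (55.6%) and in 9021 of all (33%). The 12 matches are shown with the bases around them, 5′ to 3′ on the strand of the gene, since this element was in a larger share of these promoters than of all promoters. Capitals mark the E2F-type letters, and in genes with several matches the one farthest from the start is shown.

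GINS2: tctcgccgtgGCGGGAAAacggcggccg
LIG1: cttcacccctTTTCCCGCcctcctccca
MCM3: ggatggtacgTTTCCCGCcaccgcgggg
MCM6: gggctttgcaTTTGGCGCGAAAtccctt
MCM7: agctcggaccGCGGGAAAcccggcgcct
ORC3: gcgagggcgcGCGGGAAAtccc
PCNA: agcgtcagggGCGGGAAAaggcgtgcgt
POLA1: tcatcacaggGCGCCAAAcgcgcgtccg
POLA2: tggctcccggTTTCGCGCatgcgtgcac
POLE: gggtgggagcGCGCCAAAtttctcccct
RFC3: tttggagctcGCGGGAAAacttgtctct
TYMS: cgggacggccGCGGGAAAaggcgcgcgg

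These windows lie at chr16:85688968-85688995 for GINS2, chr19:48170441-48170468 for LIG1, chr6:52284899-52284926 for MCM3, chr2:135876578-135876605 for MCM6, chr7:100101567-100101594 for MCM7, chr6:87590113-87590134 for ORC3, chr20:5126664-5126691 for PCNA, chrX:24693771-24693798 for POLA1, chr11:65261899-65261926 for POLA2, chr12:132687343-132687370 for POLE, chr13:33818084-33818111 for RFC3, chr18:657604-657631 for TYMS. In MCM6 the letters TTTGGCGC overlap with TTTCGCGC on the other strand, which puts 4 matches at 2 places. MCM6 was also 1 of the few genes called before 48 h, so its 250 bases (chr2:135876444-135876693, minus strand) are shown whole, with E2F-type and CCAAT letters in capitals. Those of UNG (chr12:109097347-109097596, plus strand), the gene with the clearest change at 24 h, are shown beside them and hold 0 matches of either kind.

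MCM6: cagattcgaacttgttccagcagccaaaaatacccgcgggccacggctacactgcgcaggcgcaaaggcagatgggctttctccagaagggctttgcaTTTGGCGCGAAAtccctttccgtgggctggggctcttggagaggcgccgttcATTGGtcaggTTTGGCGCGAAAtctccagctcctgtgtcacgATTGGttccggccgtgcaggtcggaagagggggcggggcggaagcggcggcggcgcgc
UNG: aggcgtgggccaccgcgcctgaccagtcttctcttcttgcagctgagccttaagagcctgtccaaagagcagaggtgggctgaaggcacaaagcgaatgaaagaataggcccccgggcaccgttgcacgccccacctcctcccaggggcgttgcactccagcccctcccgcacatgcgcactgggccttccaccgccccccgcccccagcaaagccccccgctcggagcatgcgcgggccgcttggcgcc

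A match is a description of the letters only, and its absence says nothing of E2F. Of the 12 genes with a match, 9 had a probe set called lower at 48 h, and of the 24 without one, 19 did. In each class 1 gene had a probe set called higher. Of all probe sets 21.5% were called lower at 48 h and 41.7% higher, and the share by gene was not counted over all genes.

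The arrays were of unequal quality. On the 3 exposed arrays at 48 h, GAPDH probe sets at the 3′ end of the transcript read 2.15 to 2.3 times those at its 5′ end, and ACTB 3.68 to 4.67 times, against 0.696 to 1.17 and 0.79 to 1.64 on the other 15 arrays. Their median signal was 534.5 to 551.6, against 290.2 to 413.9 elsewhere. They correlated at 0.86 to 0.868 among themselves and at 0.664 to 0.757 with the other arrays, which correlated at 0.909 to 0.965 with each other. The signal of probe sets for unspiked bacterial genes, taken at their 90th percentile as the background, was 411 to 443 on them and 97 to 183 elsewhere. Comparisons that use these 3 arrays come last, and the part of array quality in them was not tested.

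Each value below is the deposited signal, a linear intensity scaled to a common mean per array. Changes are differences of log2(signal + 16) with their standard error (SE), tested in limma over all 22215 probe sets with Benjamini-Hochberg adjustment, and a probe set is called at an adjusted p under 0.05. The heatmap of the 61 probe sets gives every array against the mean of the 9 control arrays. The median over the 61 lay between 0.1 and 0.25 at 3 h on the exposed arrays and between 0 and 0.16 on the 3 h control arrays. It was -0.05 to -0.04 in sarin-exposed cells at 24 h and -0.08 to -0.02 in their controls, and -1.19 to -1.03 in exposed cells at 48 h and -0.08 to -0.04 in theirs. Only the sarin-exposed cells at 48 h left the range of the other 15 arrays.

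**Figure D1:**
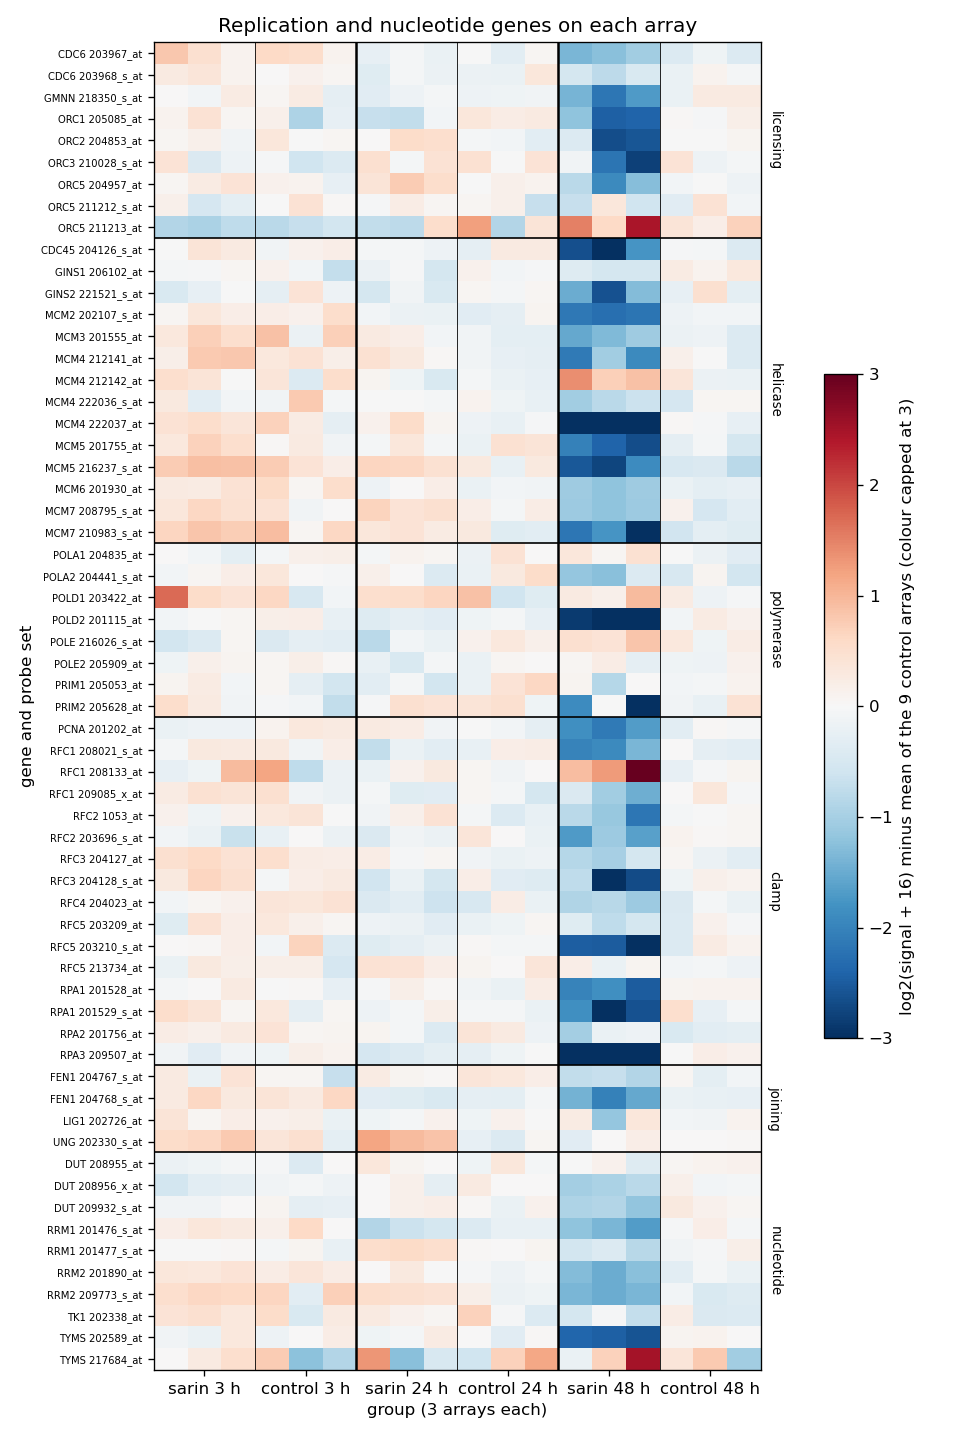
Each row is 1 probe set, ordered by role, and each column 1 array; colour is log2(signal + 16) minus the mean of the 9 control arrays, capped at 3. The 3 columns of sarin-exposed cells at 48 h are blue in most rows of every role but the polymerases and the joining genes (FEN1, LIG1 and UNG). Rows that are red there include RFC1 208133_at, ORC5 211213_at and MCM4 212142_at.

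At 3 h no replication gene differed between sarin-exposed and control cells by the limma test. None of the 22215 probe sets was called (0%), and at an unadjusted p under 0.05 there were 5 of the 61 (8.2%) against 1941 of all (8.74%). PCNA, the clamp, had the smallest p. Its signal was 3662, 3766 and 3774 in sarin-exposed cells, against 4478, 5243 and 5038 in control cells (change -0.39, SE 0.14, limma adjusted p = 0.45). RFC4, a subunit of the clamp loader, read 2680, 2943 and 3118 in sarin-exposed cells, against 3682, 3638 and 3851 in control cells (-0.35, SE 0.16, limma adjusted p = 0.536). In both genes every exposed array lay below every control array. UNG, the glycosylase, lay the other way without overlap, at 1362, 1437 and 1614 in sarin-exposed cells against 1212, 1303 and 754 in control cells (0.46, SE 0.2, limma adjusted p = 0.513). POLD1, the catalytic subunit of polymerase δ, had the largest difference of the 61 (0.87, SE 0.37, limma adjusted p = 0.502), and its groups overlapped, with 2365, 1066 and 953 in sarin-exposed cells and 1106, 509 and 677 in control cells. Groups did not overlap in 4 probe sets that were higher (6.56%, against 6.46% of all) and in 3 that were lower (4.92%, against 6.5%).

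The genes most often read as signs of S phase were not called at 3 h. MCM2, of the helicase, read 6330, 7624 and 7022 in sarin-exposed cells, against 6998, 6597 and 8742 in control cells. TYMS 202589_at, for thymidylate synthase, read 12386, 11409 and 16467 in sarin-exposed cells, against 11957, 13363 and 15427 in control cells. RRM2 209773_s_at, for the small subunit of ribonucleotide reductase, read 10532, 11257 and 11119 in sarin-exposed cells, against 11474, 5954 and 12072 in control cells. In these 3 genes the groups overlapped, and in RRM2 a single control array was far below the other two control arrays. MCM6 read 5816, 5677 and 6506 in sarin-exposed cells, against 7142, 5032 and 6875 in control cells. TK1, thymidine kinase, read 1690, 1744 and 1566 in sarin-exposed cells, against 1850, 911 and 1517 in control cells. CDC6 203968_s_at read 1178, 1270 and 1046 in sarin-exposed cells, against 986, 1073 and 1028 in control cells. These overlapped too, and the second control array was the lowest of its group for MCM6, TK1 and RRM2.

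At 24 h 2 of the 61 probe sets rose in sarin-exposed cells and none fell, which is 3.28% against 3.37% of all probe sets called. The 2 belong to UNG and to RRM1, the large subunit of ribonucleotide reductase. Their share is close to that of the background. Among all probe sets 361 rose (1.63%) and 388 fell (1.75%), and at an unadjusted p under 0.05 the genes counted 11 (18%) against 18.8% of all. Their median change was 0, that of all probe sets -0.16. The control arrays of 24 h had a median signal of 397 to 413.9, against 314.9 to 345.3 on the exposed arrays, and the GAPDH 3′ to 5′ ratio was 1.05 to 1.17 on the exposed arrays, against 0.811 to 0.941 on the controls. The summed signal of the 12 neuroblast genes was 119938 to 122458 in sarin-exposed cells, against 103478 to 117746 in control cells. That of the 4 glial genes was 345 to 488 in sarin-exposed cells, against 672 to 883 in control cells. The 8 substrate-adherent or mesenchymal genes summed to 25925 to 26462 in sarin-exposed cells, against 29741 to 32298 in control cells. The 4 blood genes summed to 761 to 983 in sarin-exposed cells, against 1058 to 1832 in control cells. The part of these differences in single changes was not tested beyond the other scalings given here.

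UNG was the clearest change before 48 h. Its signal was 2138, 1810 and 1693 in sarin-exposed cells at 24 h, against 789, 700 and 973 in control cells of that time. The lowest exposed array was above the highest control array, and the mean difference was 1.19 (SE 0.2, limma adjusted p = 0.00295). The difference held its call without any 1 of the 6 arrays (limma adjusted p 0.00456 to 0.0248), in a fit without the 48 h sarin arrays (limma adjusted p = 0.00154) and against the controls of 3 h and 48 h in place of those of 24 h (0.89, SE 0.17, limma adjusted p = 0.00351), a comparison chosen after seeing the data. With arrays scaled to the hybridisation spike-ins it was 1.23 and lost its call (limma adjusted p = 0.1). Its change at 24 h less its change at 3 h was 0.72 (SE 0.28, limma adjusted p = 0.372).

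RRM1 has a pair of probe sets, and they moved in opposite directions at 24 h. Probe set 201477_s_at read 3284, 3415 and 3251 in sarin-exposed cells, against 2356, 2323 and 2427 in control cells (0.48, SE 0.13, limma adjusted p = 0.0491). Probe set 201476_s_at read 1189, 1391 and 1512 in sarin-exposed cells, against 1645, 1856 and 1877 in control cells (-0.39, SE 0.16, limma adjusted p = 0.199). Neither pair of groups overlapped. The rise of 201477_s_at lost its call when any single one of the 6 arrays was left out (limma adjusted p 0.101 to 0.171), with a pseudocount of 1 (limma adjusted p = 0.054), with quantile normalization (0.38, limma adjusted p = 0.205) and with spike-in scaling (0.52, limma adjusted p = 0.616). Against the controls of 3 h and 48 h both probe sets were called, 201477_s_at higher by 0.56 (SE 0.11, limma adjusted p = 0.00559) and 201476_s_at lower at -0.82 (SE 0.14, limma adjusted p = 0.00145). The plot of signals by group shows the opposite order of the groups in the 2 probe sets, so no direction is given for RRM1 as a gene.

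**Figure D2:**
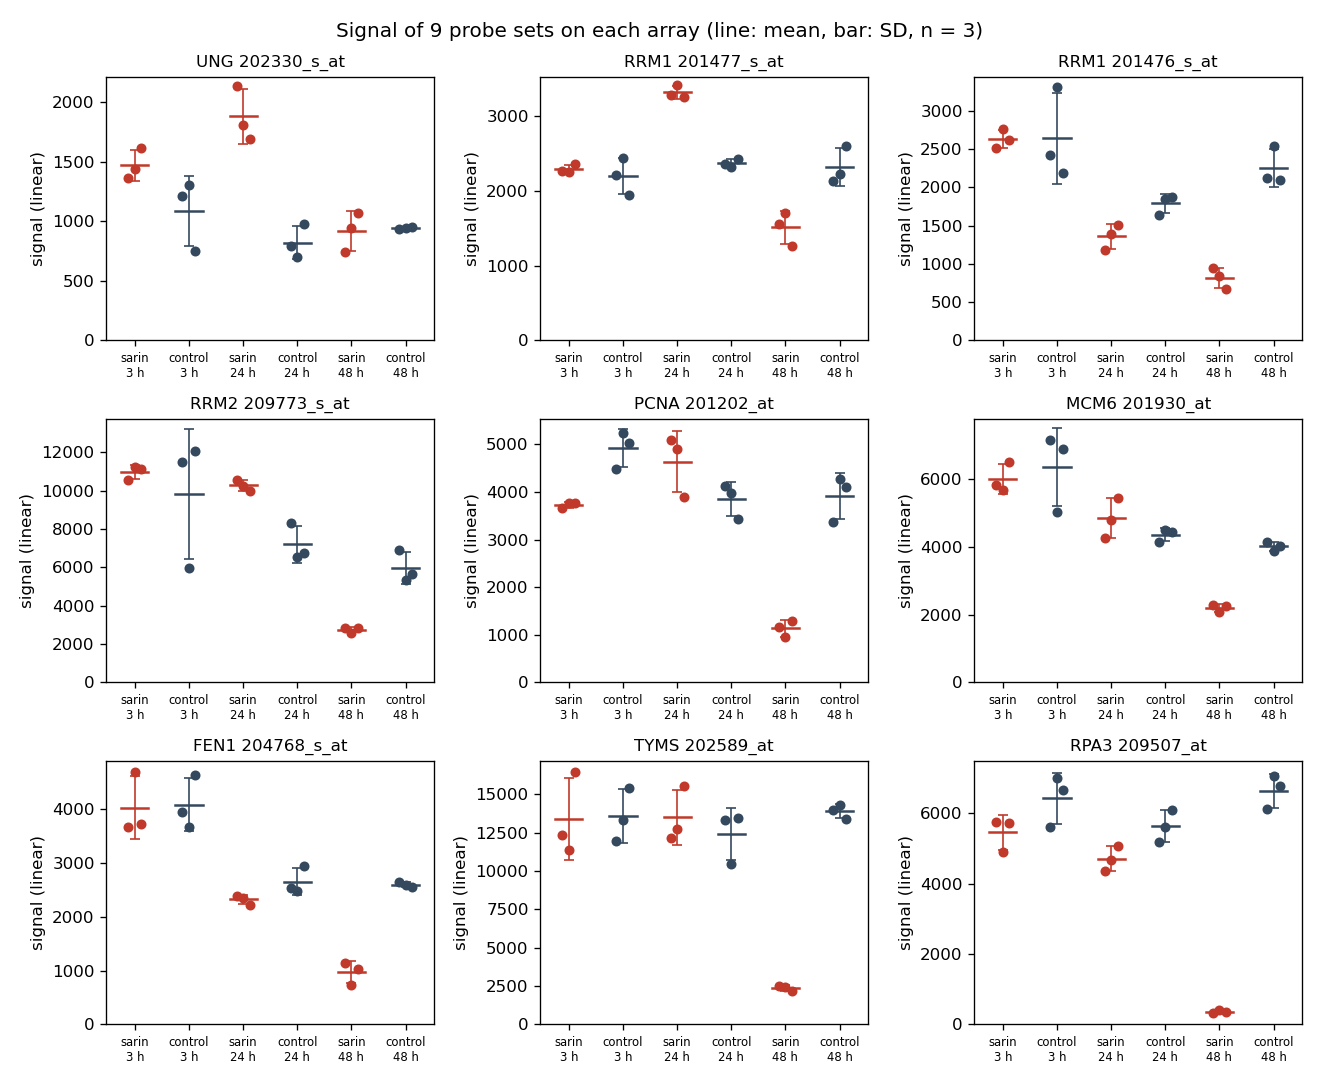
Signal (linear) of 9 probe sets on each array, sarin-exposed cells in red left of the control cells of the same time in blue, with the group mean as a line and the SD as a bar (n = 3). UNG is highest in sarin-exposed cells at 24 h, the pair of RRM1 panels run in opposite directions at 24 h, and the sarin-exposed cells at 48 h are the lowest group in the other 6 panels.

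Other members lay near these in p without a call. RRM2 209773_s_at read 10582, 10242 and 9987 in sarin-exposed cells at 24 h, against 8320, 6551 and 6768 in control cells (0.52, SE 0.2, limma adjusted p = 0.162). POLE, the catalytic subunit of polymerase ε, read 542, 914 and 846 in sarin-exposed cells, against 1060, 1210 and 1068 in control cells (-0.56, SE 0.21, limma adjusted p = 0.156). PRIM1, the primase that makes RNA primers, read 1296, 1563 and 1101 in sarin-exposed cells, against 1412, 2159 and 2484 in control cells (-0.58, SE 0.24, limma adjusted p = 0.198). The exposed arrays were all above the controls for RRM2, all below them for POLE, and overlapped with them for PRIM1. ORC1, the largest ORC subunit, read 294, 284 and 453 in sarin-exposed cells, against 612, 571 and 588 in control cells (-0.78, SE 0.34, limma adjusted p = 0.22). Over the 61 probe sets, 12 were higher without overlap (19.7%, against 10.6% of all) and 8 lower (13.1%, against 21.6%). Uncalled MCM3, MCM5 216237_s_at and MCM7 208795_s_at were among the higher ones, and POLE and ORC1 among the lower ones.

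PCNA, MCM2, MCM6, TYMS, TK1 and CDC6 overlapped between the groups at 24 h. PCNA read 5100, 4902 and 3904 in sarin-exposed cells, against 4128, 3972 and 3441 in control cells (0.26, SE 0.14, limma adjusted p = 0.339). MCM2 read 5731, 5365 and 5264 in sarin-exposed cells, against 4790, 4978 and 6435 in control cells. MCM6 read 4273, 4805 and 5453 in sarin-exposed cells, against 4136, 4493 and 4437 in control cells. None of these was called, and the groups overlapped in all 3. TYMS 202589_at read 12174, 12744 and 15577 in sarin-exposed cells, against 13320, 10440 and 13478 in control cells. TK1 read 1507, 1370 and 1323 in sarin-exposed cells, against 2043, 1230 and 937 in control cells. CDC6 203968_s_at read 754, 928 and 865 in sarin-exposed cells, against 869, 840 and 1238 in control cells. Of these 3 genes too none was called and all overlapped.

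Other genes of replication, its regulation and nucleotide supply, 109 probe sets of 68 genes, had 3 that rose and 1 that fell at 24 h (3.67%, against 3.37% of all). TOP1, topoisomerase I, which relaxes the DNA ahead of the fork, rose in both of its probe sets, with 7052 ± 332 in sarin-exposed cells and 3703 ± 301 in control cells for 208901_s_at (SD, n = 3 each; 0.93, SE 0.17, limma adjusted p = 0.00587). POLE3, a small subunit of polymerase ε, rose by 0.6 (SE 0.16, limma adjusted p = 0.0484). It averaged 2419 ± 148 in sarin-exposed cells and 1598 ± 198 in control cells at 24 h, and 2511 ± 260 in control cells at 3 h (SD, n = 3 each). CDK2 204252_at, for the kinase that drives entry into S phase, fell by 0.62 (SE 0.14, limma adjusted p = 0.0185). Among 41 probe sets of 24 genes of G2 and mitosis, 2 rose and 0 fell (4.88%, against 3.37% of all). Both of them were for CENPF, a kinetochore protein (0.82 and 0.54, limma adjusted p 0.0277 and 0.0295).

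Between 3 h and 24 h the change under sarin did not differ past the threshold for any of the 61 probe sets, against 66 of all (0.297%). PCNA came nearest, at 0.66 (SE 0.2, limma adjusted p = 0.213): its change was -0.39 at 3 h and 0.26 at 24 h. ORC1 had -1.32 (SE 0.48, limma adjusted p = 0.327) and PRIM1 -0.92 (SE 0.34, limma adjusted p = 0.343). At an unadjusted p under 0.05 there were 5 of the 61 (8.2%), against 9.95% of all.

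In untreated cells FEN1 and MCM6 were the members called between 24 h and 3 h, a share like that of all probe sets. At 24 h 2 of the 61 probe sets were lower in control cells than in control cells at 3 h and 0 were higher, which is 3.28% called against 3.27% of all (1.13% lower and 2.14% higher). FEN1 204768_s_at, for the flap endonuclease, read 2530, 2479 and 2939 at 24 h, against 3947, 3671 and 4640 at 3 h, and fell by 0.62 (SE 0.15, limma adjusted p = 0.0353). MCM6 read 4136, 4493 and 4437 at 24 h, against 7142, 5032 and 6875 at 3 h, and fell by 0.53 (SE 0.14, limma adjusted p = 0.0414). The groups did not overlap in either. FEN1's other probe set, 204767_s_at, read 3688, 3577 and 3272 at 24 h, against 3023, 2998 and 1773 at 3 h, and its change had the opposite sign (0.47, SE 0.19, limma adjusted p = 0.165). Both calls were lost with quantile normalization (limma adjusted p = 0.248 for FEN1 and 0.258 for MCM6), in a fit on these 6 arrays alone (0.126 and 0.204), and without any 1 array except the second at 3 h.

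The control arrays of 24 h also differed from those of 3 h in ACTB 3′ to 5′ ratio (1.46 to 1.5 at 24 h, against 0.79 to 1.14 at 3 h) and in median signal (397 to 413.9 at 24 h, against 310.2 to 339.2 at 3 h), with no overlap, and the part of this in the changes was not tested. The other 59 probe sets were not called. Of the 61, 38 had a change below 0 (36.2% of all did), some of them within 1 SE of 0, and the median was -0.09, against 0.18 for all probe sets, which moves to -0.12 with quantile normalization (all, 0.01), -0.42 with median centring (all, -0.15) and -0.88 with spike-in scaling (all, -0.55). Without overlap, 13 were lower (21.3%, against 6.27% of all) and 5 higher (8.2%, against 17%). MCM2 had -0.46 (SE 0.14, limma adjusted p = 0.067), RFC4 -0.53 (SE 0.16, limma adjusted p = 0.0732) and RFC3 204127_at -0.47 (SE 0.14, limma adjusted p = 0.0762). RRM2 209773_s_at had -0.39 (SE 0.2, limma adjusted p = 0.285), and PCNA -0.35 (SE 0.14, limma adjusted p = 0.175). TYMS 202589_at, TK1 and CDC6 203968_s_at had changes of -0.13, -0.04 and -0.09. POLE ran the other way, at 1060, 1210 and 1068 at 24 h against 714, 798 and 777 at 3 h (0.53, SE 0.21, limma adjusted p = 0.164). With median centring 13 of the 61 were called, all lower (all probe sets, 7.27% called, 1428 lower and 186 higher). With spike-in scaling 30 were called, all lower (all, 17% called, 3733 lower and 52 higher).

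Control cells at 48 h were set against those of both earlier times. Against 3 h, none of the 61 was called, with 22 of all called (0.099%). MCM5 216237_s_at, of the helicase, came nearest. It read 1094, 1128 and 862 at 48 h, against 2602, 2054 and 1750 at 3 h, and its groups did not overlap (-1.03, SE 0.21, limma adjusted p = 0.0539). MCM6 read 4132, 3874 and 4036 at 48 h, against 7142, 5032 and 6875 at 3 h (-0.64, SE 0.14, limma adjusted p = 0.0651). Among the probe sets in the upper 60% by level both passed the threshold, at an adjusted p of 0.0416 and 0.0495 by limma. Both stayed uncalled with quantile normalization (limma adjusted p = 0.135 for MCM5 and 0.167 for MCM6). In a fit on these 6 arrays alone they were uncalled too (limma adjusted p = 0.297 and 0.376). With single arrays left out, MCM5 was never called, and MCM6 only without the second array at 3 h. GINS1, a subunit of the GINS complex, read 1918, 1719 and 1998 at 48 h, against 1755, 1522 and 972 at 3 h (0.44, SE 0.18, limma adjusted p = 0.372). Of the 61, 17 had an unadjusted p under 0.05 (27.9%, against 10.7% of all), 13 of them lower (against 3.72% of all), and 12 were lower without overlap (19.7%, against 5.3%).

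The remaining S-phase genes of the 48 h controls read as follows. MCM2 had 5468, 5725 and 5677 at 48 h, against 6998, 6597 and 8742 at 3 h (-0.39, SE 0.14, limma adjusted p = 0.276). RRM2 209773_s_at had 6926, 5364 and 5664 at 48 h, against 11474, 5954 and 12072 at 3 h (-0.66, SE 0.2, limma adjusted p = 0.214). FEN1 204768_s_at had 2641, 2586 and 2559 at 48 h, against 3947, 3671 and 4640 at 3 h (-0.64, SE 0.15, limma adjusted p = 0.11). The 48 h arrays were all below the 3 h arrays for MCM2 and FEN1, and overlapped with them for RRM2. PCNA had 3374, 4271 and 4114 at 48 h, against 4478, 5243 and 5038 at 3 h, without overlap. TYMS 202589_at averaged 13909 at 48 h and 13583 at 3 h, and TK1 averaged 1117 and 1426. CDC6 203968_s_at had 841, 1059 and 928 at 48 h, against 986, 1073 and 1028 at 3 h. Groups overlapped for TYMS, TK1 and CDC6. Between 48 h and 24 h none of the 61 was called, with 42 of all called (0.189%). MCM5 216237_s_at read 1094, 1128 and 862 at 48 h, against 1875, 1311 and 1870 at 24 h (-0.7, SE 0.21, limma adjusted p = 0.235). RRM1 201476_s_at read 2130, 2540 and 2094 at 48 h, against 1645, 1856 and 1877 at 24 h, where the 24 h arrays are the lower ones. RPA2 averaged 2457 ± 148 at 48 h and 3554 ± 674 at 24 h (SD, n = 3 each). RPA3 averaged 6642 ± 485 at 48 h and 5636 ± 462 at 24 h.

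Related gene lists also had calls in the controls. Of the other replication genes 3 probe sets were lower and 1 higher in control cells at 24 h than at 3 h. That is 3.67% called, near the 3.27% of all probe sets (1.13% lower and 2.14% higher). SUPT16H had -0.56 (SE 0.13, limma adjusted p = 0.0214), and POLE3, which was higher under sarin at 24 h, had -0.65 (SE 0.16, limma adjusted p = 0.0353). CCNA2, cyclin A, fell by 0.75 (SE 0.2, limma adjusted p = 0.0456), and MTHFD2, a mitochondrial enzyme of folate metabolism, rose by 0.97 (SE 0.15, limma adjusted p = 0.00218). Of the genes of G2 and mitosis 4 probe sets were lower and 0 higher (9.76%, against 3.27% of all), among them MKI67 212023_s_at, with 705 ± 99.3 at 24 h and 1370 ± 347 at 3 h (SD, n = 3 each; -0.92, SE 0.23, limma adjusted p = 0.0353). CDK1 203214_x_at, for the kinase of mitotic entry, was lower at 24 h than at 3 h (-0.64, SE 0.13, limma adjusted p = 0.0109) and higher at 48 h than at 24 h (0.72, SE 0.13, limma adjusted p = 0.0259). The plot of changes by gene sets the 24 h change under sarin beside this change of the controls.

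**Figure D3:**
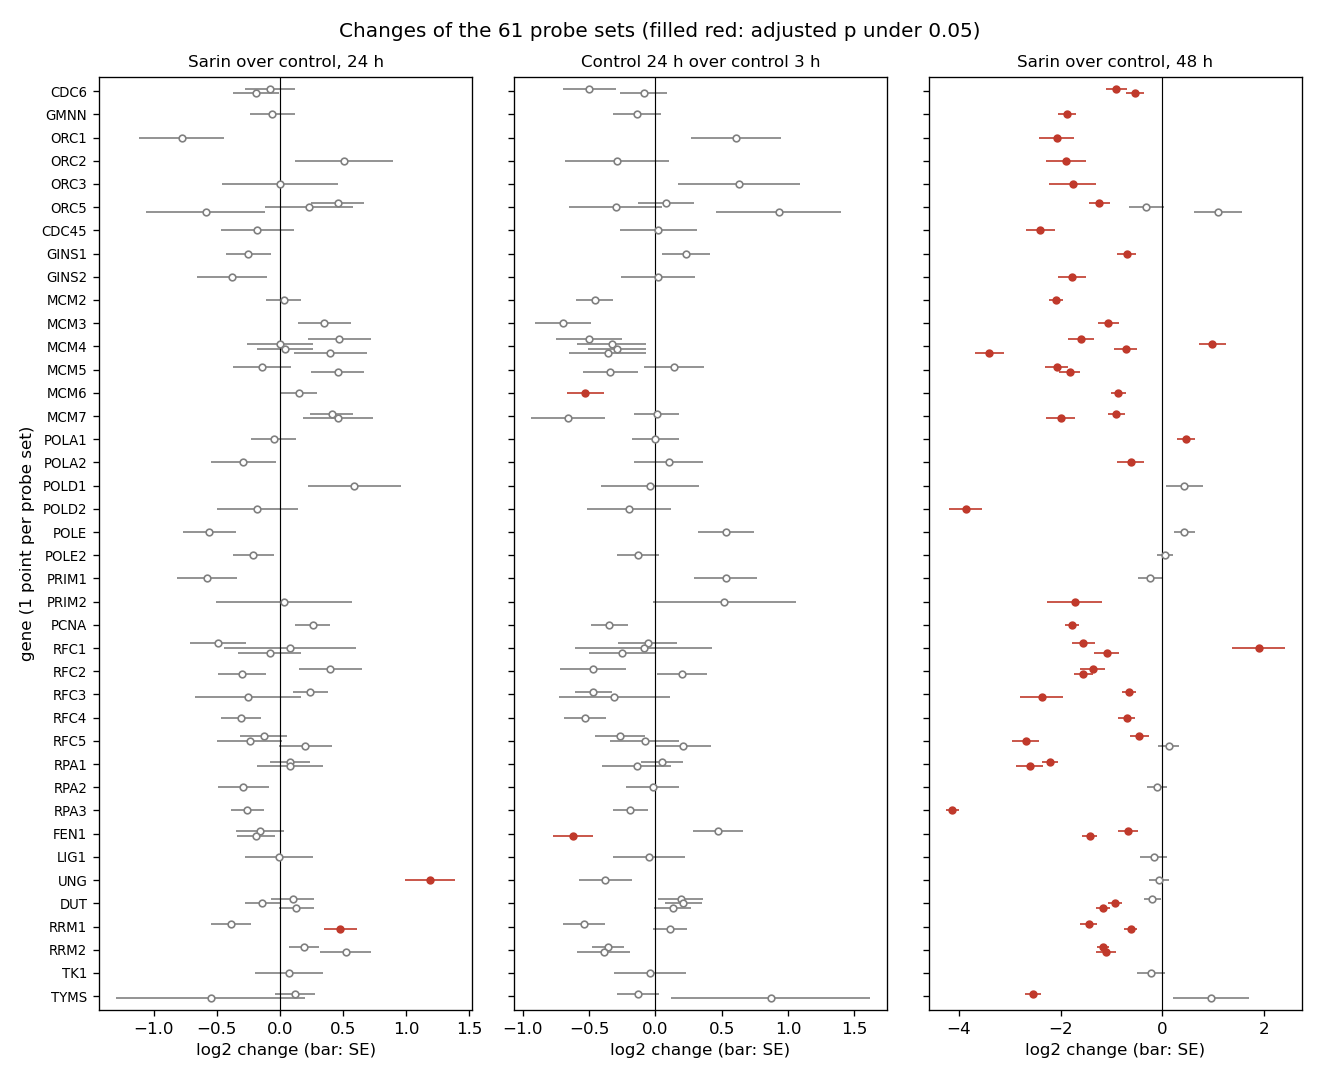
Change in log2(signal + 16) of each of the 61 probe sets, with 1 SE as a bar, for sarin over control at 24 h, control at 24 h over control at 3 h, and sarin over control at 48 h; filled red points have an adjusted p under 0.05. There are 2 red points at 24 h, 2 in the controls, and 48 at 48 h, of which 45 lie left of 0.

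At 48 h the replication genes were lower in sarin-exposed cells on these arrays. Of the 61 probe sets 45 were called lower and 3 higher (78.7%, against 63.2% of all), where all probe sets had 4771 lower (21.5%) and 9270 higher (41.7%). The 45 belong to 31 of the 40 genes, and 8 genes had no call. The median change was -1.09, against 0.62 for all probe sets, and -0.85 with the 15 probe sets that were at background in sarin-exposed cells set to their bound, or to 0 where they have none. The fitted median was -1.04 with quantile normalization (all, 0.13), -1.66 with median centring (all, 0.06) and -3.01 with spike-in scaling (all, -1.21), with 45, 53 and 58 probe sets lower. Of all 22215 probe sets, 5632, 6711 and 11754 were called lower under these scalings in the same order. All 3 exposed arrays were below all 3 controls in 41 probe sets (67.2%, against 21.4% of all) and above them in 4 (6.56%, against 43.5%). The summed signal of the neuroblast genes was 52832 to 62194 in sarin-exposed cells, against 98036 to 102547 in control cells. That of the 4 blood genes was 3465 to 3782 in sarin-exposed cells, against 1312 to 1433 in control cells. The 8 substrate-adherent or mesenchymal genes summed to 12768 to 14004 in sarin-exposed cells, against 33672 to 50609 in control cells. The 4 glial genes summed to 1404 to 1771 in sarin-exposed cells, against 513 to 790 in control cells. The part of these differences in the result was not tested.

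The change at 48 h also ran with level. The exposed arrays at 48 h had a higher background and median, and the change of all probe sets ran with their signal, with a median of 1.28 among the dimmest of 5 equal bins by mean level and -0.84 among the brightest. Of the 61, 34 are in the brightest bin and 21 in the next. In the brightest bin 29 of the 34 were called lower (85.3%, against 64.7% of all in that bin), with a median of -1.13 against -0.84. In the next bin 14 of 21 were called lower (66.7%, against 28.8%), with a median of -1.09 against 0.1. The scatter of change by level shows both.

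**Figure D4:**
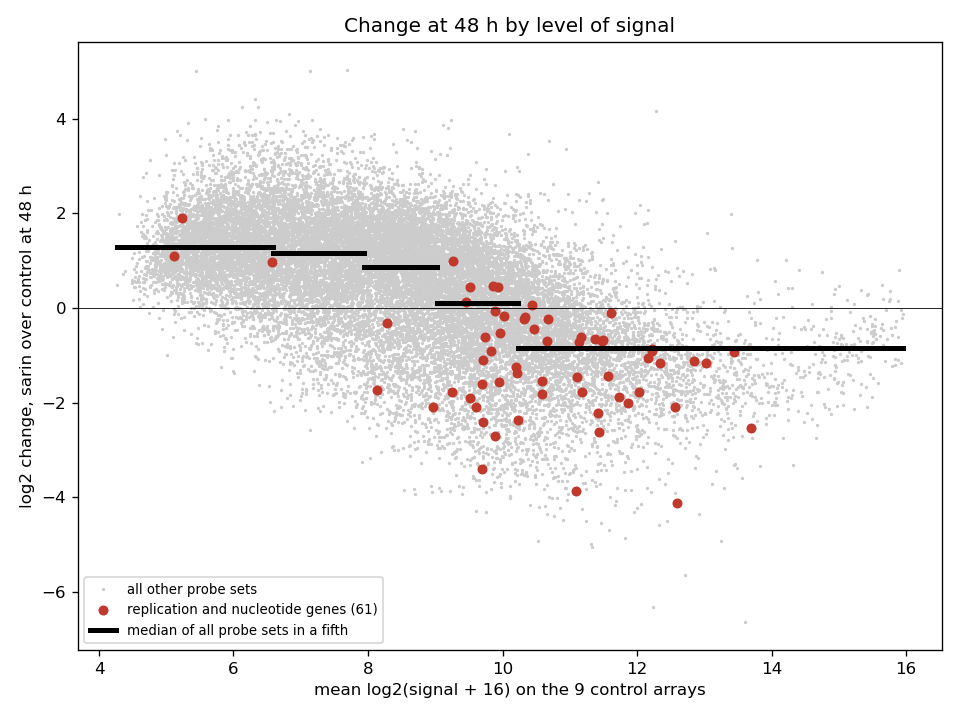
Change at 48 h (sarin over control, log2) of all probe sets in grey and of the 61 in red, by mean log2(signal + 16) of the 9 control arrays; black bars are medians of all probe sets in each of 5 equal bins by level. The grey cloud falls with level, and most red points right of 9 lie below the bars.

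Of 61 probe sets, 15 were at or below background on all 3 exposed arrays at 48 h, against 2 or 3 in the other groups, so that only a bound can be given for their change. Bounds set the mean of the control arrays against the background of the exposed ones, which is itself high. RPA3, the small subunit of RPA, had the largest bound, and the largest fold among probe sets with no bound was 6.12. It read 336, 396 and 364 in sarin-exposed cells at 48 h, against 6108, 7054 and 6762 in control cells, and was at least 15.7-fold lower (limma adjusted p = 7.07e-14). POLD2, a subunit of polymerase δ, read 287, 180 and 53.9 in sarin-exposed cells, against 2049, 2581 and 2376 in control cells, and was at least 5.51-fold lower (limma adjusted p = 1.28e-08). The exposed arrays were far below every control in both.

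Among the licensing genes 7 of 9 probe sets fell and 0 rose. GMNN, geminin, averaged 1013 ± 262 in sarin-exposed cells and 3701 ± 637 in control cells (SD, n = 3 each; -1.87, SE 0.18, limma adjusted p = 1.02e-07). CDC6 203968_s_at read 674, 558 and 707 in sarin-exposed cells, against 841, 1059 and 928 in control cells (-0.54, SE 0.18, limma adjusted p = 0.0133). Its call was lost in a fit on these 6 arrays alone, and CDC6's other probe set was at background. ORC1 was at background too, at least 1.19-fold lower. ORC2 and ORC3, both ORC subunits, were called lower with widely spread exposed arrays, 249 ± 250 in sarin-exposed cells and 728 ± 28 in control cells for ORC2 (SD, n = 3 each). ORC3's groups overlapped. ORC5 fell in 204957_at (-1.24, SE 0.21, limma adjusted p = 8.1e-05), and its other 2 probe sets were not called. One of those, 211213_at, was not above background in any group.

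In the helicase 13 of 14 probe sets fell, at least 1 for each of its 9 genes. MCM2 read 1362, 1254 and 1316 in sarin-exposed cells, against 5468, 5725 and 5677 in control cells (-2.09, SE 0.14, limma adjusted p = 5.2e-10). MCM6 read 2284, 2070 and 2265 in sarin-exposed cells, against 4132, 3874 and 4036 in control cells (-0.86, SE 0.14, limma adjusted p = 3.62e-05). These are narrow groups with no overlap. MCM3 fell by 1.06, and the 2 probe sets of MCM7 had changes of -0.9 and -2. GINS1 fell by 0.7, and GINS2 fell by 1.78. CDC45 and MCM5 were at background in sarin-exposed cells, CDC45 at least 1.72-fold lower and MCM5 at least 1.48-fold and 2.42-fold lower in its 2 probe sets.

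MCM4 split. Of its 4 probe sets, 212142_at rose, with 1606, 986 and 1107 in sarin-exposed cells against 776, 531 and 521 in control cells (0.99, SE 0.26, limma adjusted p = 0.00317). Probe set 222036_s_at fell, with 1076, 1263 and 1421 in sarin-exposed cells against 1576, 2349 and 2352 in control cells (-0.72, SE 0.22, limma adjusted p = 0.00829). The other 2 were at background in sarin-exposed cells, at least 1.8-fold and 1.82-fold lower. The rise of 212142_at was 0.43 with median centring (limma adjusted p = 0.173) and turned to -1.02 with spike-in scaling (limma adjusted p = 0.0128).

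The polymerases and primase differed from one another. Of 8 probe sets, each of another gene, 3 fell, 1 rose and 4 were not called. POLD2 fell as above, while POLD1, the catalytic subunit of the same polymerase, had 1027 ± 331 in sarin-exposed cells and 732 ± 105 in control cells (SD, n = 3 each; 0.44, SE 0.37, limma adjusted p = 0.299). POLA1, the catalytic subunit of polymerase α, read 1170, 947 and 1270 in sarin-exposed cells, against 902, 807 and 718 in control cells (0.47, SE 0.18, limma adjusted p = 0.0292). That rise became -0.09 with median centring and -1.54 with spike-in scaling, and was lost without any of 4 of the 6 arrays. Its partner POLA2 fell by 0.62 with overlapping groups (SE 0.26, limma adjusted p = 0.0426). POLE (0.44), POLE2 (0.06) and PRIM1 (-0.23) were not called, and PRIM2, the large primase subunit, was at background in sarin-exposed cells with overlapping groups, so no fold is given.

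Among the clamp, its loader and RPA, 13 of 16 probe sets fell. PCNA read 1154, 954 and 1296 in sarin-exposed cells, against 3374, 4271 and 4114 in control cells (-1.78, SE 0.14, limma adjusted p = 8.58e-09). RPA1 201528_at, for the large subunit of RPA, read 667, 746 and 466 in sarin-exposed cells, against 2875, 2921 and 2927 in control cells (-2.21, SE 0.16, limma adjusted p = 2.85e-09). RPA2, the middle subunit, read 1543, 2727 and 2824 in sarin-exposed cells, against 2289, 2522 and 2562 in control cells (-0.1, SE 0.2, limma adjusted p = 0.661). RPA2 was thus not called, while RPA1 and RPA3 of the same complex were lower. RFC2, RFC3 and RFC4 fell in all of their probe sets, with changes of -0.65 to -2.37. RFC5 had 203210_s_at at background (at least 2.16-fold lower), 203209_at lower with overlapping groups (-0.45), and 213734_at not called. RFC1 fell by 1.09 in 209085_x_at and was at least 1.99-fold lower in 208021_s_at. Its 208133_at was called higher, but at 56.2, 76.0 and 346 in sarin-exposed cells and 15.7, 20.8 and 23.9 in control cells it was not above background in any group.

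Of the genes that join fragments or remove uracil, FEN1 fell in both probe sets, with -1.43 in 204768_s_at and -0.67 in 204767_s_at. LIG1, DNA ligase I, read 1226, 446 and 1294 in sarin-exposed cells, against 966, 953 and 1110 in control cells, and was not called (-0.17, SE 0.27, limma adjusted p = 0.596). UNG, the gene that had risen at 24 h, read 739, 943 and 1071 in sarin-exposed cells at 48 h, against 932, 947 and 951 in control cells (-0.06, SE 0.2, limma adjusted p = 0.818).

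In nucleotide supply 7 of 10 probe sets fell. TYMS 202589_at read 2528, 2422 and 2179 in sarin-exposed cells, against 13980, 14319 and 13426 in control cells (-2.54, SE 0.16, limma adjusted p = 3.75e-10). RRM2 209773_s_at read 2825, 2589 and 2846 in sarin-exposed cells, against 6926, 5364 and 5664 in control cells (-1.11, SE 0.2, limma adjusted p = 0.000114). Both were below every control array by a wide margin. RRM1 fell in both probe sets, with -0.62 in 201477_s_at and -1.45 in 201476_s_at. DUT, dUTPase, fell in 208956_x_at (-0.93) and 209932_s_at (-1.16) and was not called in 208955_at. TK1 read 872, 1224 and 762 in sarin-exposed cells, against 1479, 926 and 947 in control cells (-0.22, SE 0.27, limma adjusted p = 0.491).

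The other replication genes had 42 probe sets lower and 23 higher of 109 at 48 h, with a median of -0.28. That is 59.6% called, against 63.2% of all probe sets (21.5% lower and 41.7% higher). SSRP1, a histone chaperone subunit of the FACT complex, averaged 511 ± 167 in sarin-exposed cells and 2994 ± 354 in control cells (SD, n = 3 each; -2.56, SE 0.2, limma adjusted p = 6.19e-09). MTHFD2 fell by 1.73. IMPDH2, of guanine nucleotide synthesis, fell by 2.24, and ATIC, of purine synthesis, fell by 1.23. ORC6 219105_x_at rose by 1.23 and POLG, the mitochondrial polymerase, by 1.76. CHAF1A rose in 203975_s_at (1.29) and 214426_x_at (0.96) and fell in 203976_s_at (-2.1). TOP1 rose in 208900_s_at (1.35) and fell in 208901_s_at (-1.57), although both probe sets had risen at 24 h. Genes of G2 and mitosis had 25 probe sets lower and 2 higher of 41 (65.9% called, against 63.2% of all), with a median of -1.06. In 7 of the 68 and 2 of the 24 genes, as in MCM4 and RFC1, probe sets of a single gene were called in both directions.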

How the data were processed

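Total RNA was made into labelled cRNA and hybridised to Affymetrix arrays, per the labels. The deposited intensity is the linear MAS5 signal of each array, as the submitters' processing notes name it, and the sources used here do not give its version or target. With the outer 2% at each end removed, mean signals were 800.1 to 800.3 on every array, so they are relative to each array's own total.

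Of 22283 probe sets, 68 controls were left out. The other 22215 were analysed as log2(signal + 16) with no filter on low values, so that all 61 were tested. A change on this scale understates that of dim probe sets. A limma 3.58.1 model (R 4.3.3, lmFit, eBayes with trend, two-sided) held 1 mean for each of the 6 groups over 18 arrays, with 12 residual and 6.73 prior degrees of freedom, and Benjamini-Hochberg adjustment over all probe sets. The script was tested on simulated data. Probe set genes are those of the platform's annotation.

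Background was the 90th percentile of 27 probe sets for unspiked bacterial genes, and a probe set at or under it on all 3 arrays of a group was not above background there. A bound on its fold sets the other group's mean log2 value against the higher of that background and its own signal. Values on every array are given for up to 6 members a direction with the smallest p among those called, or 2 where fewer than 3 were, and for PCNA, MCM2, MCM6, TYMS, RRM2, TK1 and CDC6 at each time. For RPA2 and RPA3 in the controls of 48 h against 24 h, means are given instead. For a gene with several probe sets these are of the one with the highest mean signal, and others are given where they disagree. Up to 4 other replication genes a direction are named likewise. ORC1, RRM2 at 24 h, second probe sets and members described by role were added after their values were seen. The members, lists and tests were chosen with earlier results of these data known.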

Additional observations from a re-analysis of the deposited data

Results flagged for a closer look

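In 5 flagged cases every array of sarin-exposed cells lay on one side of its controls at 1 time and on the other side at 48 h. They are not the only ones. MCM3, for example, lay wholly above its controls at 24 h and wholly below them at 48 h. Of all probe sets, 43.5% lay wholly above their controls at 48 h and 21.4% wholly below. The difference between the times was not tested. MCM5 216237_s_at had a change of 0.39 at 3 h and 0.46 at 24 h and was at background in sarin-exposed cells at 48 h, at least 2.42-fold lower. RRM1 201477_s_at had 0.48 at 24 h beside -0.62 at 48 h, and RRM2 209773_s_at 0.52 beside -1.11. POLE ran the other way, with -0.56 at 24 h beside 0.44 at 48 h. All of them rest on the 48 h sarin arrays, whose GAPDH 3′ to 5′ ratio was 2.15 to 2.3, against 0.696 to 1.17 on the other arrays.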

How the results depend on the processing

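The alternatives were pseudocounts of 1 and 64, the upper 60% of probe sets by level, 1 probe set per gene, quantile normalization, median centring, spike-in scaling, array weights, fits without the 48 h sarin arrays or on only the arrays compared, a replicate block, leaving out each array, and, added after seeing the data, other control arrays at 24 h. Of 1326 alternative values for 75 named changes, 1248 kept their side of the threshold, 38 gained a call, 37 lost it and 3 called changes reversed. Among the 1326, 50 values not past the threshold changed sign, so the 1248 did not all keep their direction. The 3 reversed, all at 48 h, were POLA1, -0.09 with median centring and -1.54 with spike-in scaling, and MCM4 212142_at, -1.02 with spike-in scaling. The cause was not tested.

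The 48 calls at 48 h were 44 to 48 without any 1 array. With 1 probe set per gene, where fewer were tested, 31 of 39 were called (70.7% of all). The 2 calls at 24 h became 1 with a pseudocount of 1, with quantile normalization, with the replicate block and without any 1 array (1 to 1), 0 with spike-in scaling, 6 with median centring (6.43% of all called), 4 with array weights (10.7% of all) and 8 against the other controls (4 higher and 4 lower, 6.05% of all). The 2 calls of the controls at 24 h against 3 h became 0 with quantile normalization or only the arrays compared, 13 with median centring (7.27% of all), 30 with spike-in scaling (17%), 6 with array weights (6.73%), 4 without the 48 h sarin arrays (5.02%) and 0 to 5 without any 1 array. The 0 calls at 48 h against 3 h became 1 with a pseudocount of 64 (0.126% of all), 28 with spike-in scaling (16.6%), 8 with array weights (0.999%) and 0 to 3 without any 1 array. There were 2 with either level filter (0.33% and 0.488% of all), median centring (0.252%) or no 48 h sarin arrays (0.234%). The 0 calls of the controls at 48 h against 24 h became 1 with array weights (1.2% of all). At 3 h, and for the difference between 24 h and 3 h, 0 were called under every alternative run.

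The labels number replicates 1 to 3 in each group. Arrays of the same number did not deviate together (correlation of deviations -0.07 to 0.02, over 0.1 in 0 of 9 pairs), so the number is taken as a name only. The block left UNG at 1.19 and moved RRM1 201477_s_at to an adjusted p of 0.0609 by limma. The number of arrays, and at 48 h the background of 411 to 443, limits what can be seen.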
